A study of Mus musculus with 12 samples.

Results

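The 80 protein-coding genes of cytosolic ribosomal proteins were followed through 4 stromal populations sorted from mouse mammary tumours. They were taken from the deposited table of 55487 genes as every protein-coding gene whose symbol has the standard form of a ribosomal protein gene (Rpl or Rps with a number and at most a final a, l or x, with Rplp0, Rplp1, Rplp2 and Rpsa). Of these, 49 code for proteins of the large subunit and 31 for proteins of the small subunit. The form of the symbol leaves out 6 relatives, among them Rps3a1, Fau and Rpl22l1, which are described separately.

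Tumours came from untreated FVB MMTV-PyMT mice aged 10 weeks, in which the mouse mammary tumour virus promoter drives the polyoma middle T oncogene, mainly in mammary epithelium. The library titles carry the numbers 27, 30 and 31, which are read here as 3 mice. Each number has 1 RNA library per population, 12 in all. Every population was gated as live, PDGFRb+ and negative for the combined stain of CD45, CD31 and EPCAM. The vcaf cells were Ly6C-, CD146+ and PDGFRa-. The icaf cells were Ly6C+. The m2cafpos cells were Ly6C-, CD146-, PDGFRa+ and NCAM+, and the m2cafneg cells differed from them in being NCAM-.

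The libraries held 43898839 to 55363203 reads assigned to genes. All 4 populations are labelled cancer-associated fibroblasts. Summed CPM (counts per 1000000 reads assigned to genes) of 6 fibroblast markers ran from 9959 to 12429 in vcaf, 69848 to 74416 in icaf, 145842 to 154547 in m2cafpos and 73506 to 92820 in m2cafneg, and vcaf cells instead held 34219 to 55698 CPM of 7 pericyte markers, which summed to at most 483 CPM elsewhere. Despite the EPCAM gate, 20 epithelial markers summed to 9842 to 19513 CPM in vcaf, 1303 to 3539 in icaf, 769 to 3461 in m2cafpos and 6643 to 14487 in m2cafneg. The 16 macrophage markers likewise summed to 594 to 1391 CPM in vcaf, 101 to 226 in icaf, 161 to 243 in m2cafpos and 638 to 1030 in m2cafneg. None of these epithelial and macrophage markers was at 0 in any library. In such bulk libraries, fewer cells of a type and less RNA per cell cannot be told apart.

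The cytosolic ribosome has a large subunit, which forms peptide bonds, and a small subunit, which decodes the mRNA. Most of its proteins are needed in equal amounts, and an unassembled excess is degraded. Their mRNAs are among the most abundant of a growing cell and begin with a run of pyrimidines, the terminal oligopyrimidine or TOP motif, through which the kinase mTOR and the RNA-binding protein LARP1 control their translation and stability. Levels of these mRNAs therefore do not equal rates of protein synthesis.

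Ribosomal protein mRNA took the largest share of reads in vcaf and the smallest in m2cafpos. The 80 genes together had 28091, 31716 and 31909 CPM in vcaf of mice 27, 30 and 31, and 26706, 28960 and 25620 CPM in icaf of the same mice. They had 20877, 19537 and 18294 CPM in m2cafpos, and 24396, 22952 and 24793 CPM in m2cafneg. The m2cafpos libraries lay below the other 9, and vcaf and icaf overlapped. This was 3.06 ± 0.215% of reads in vcaf, 2.71 ± 0.170% in icaf, 1.96 ± 0.129% in m2cafpos and 2.40 ± 0.0969% in m2cafneg (SD, n = 3 each).

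How the libraries were scaled against each other decided whether vcaf or icaf came first in this order. CPM divides each gene by all reads of its library, abundant mRNAs included. The 10 genes that passed 1% of reads in any library took 11.1 ± 0.567% of reads in vcaf, 12.9 ± 0.675% in icaf, 20.7 ± 0.417% in m2cafpos and 13.7 ± 0.968% in m2cafneg (SD, n = 3 each). They included Col1a1, Col1a2, Col3a1 and Sparc, of the extracellular matrix, and the pericyte gene Rgs5. With totals that leave these 10 genes out, the order of the populations was the same: the members summed to 29324 ± 1948 in vcaf, 26549 ± 1598 in icaf, 21053 ± 1443 in m2cafpos and 23779 ± 986 in m2cafneg (SD, n = 3 each). The trimmed mean of M values (TMM), which scales libraries so that most genes do not change, gave factors of 1.21 to 1.25 in vcaf, 0.919 to 0.946 in icaf, 0.849 to 0.851 in m2cafpos and 0.987 to 1.08 in m2cafneg. After division by these factors the 80 genes summed to 22483, 26131 and 25503 in vcaf, 28233, 31519 and 27494 in icaf, 24591, 22947 and 21520 in m2cafpos, and 24506, 23254 and 23005 in m2cafneg. On that scale the 3 icaf libraries were above the other 9, which overlapped one another.

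**Figure D1:**
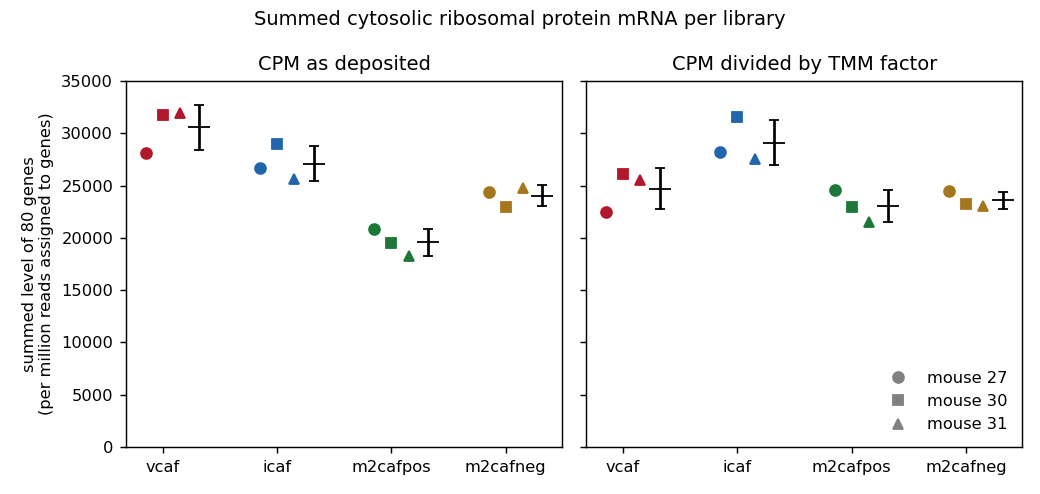
Summed level of the 80 ribosomal protein genes in each library, as CPM (left) and as CPM divided by the TMM factor (right), with mean and SD (n = 3) beside each population and symbols marking the mouse. On the CPM scale m2cafpos is lowest, at 18294 to 20877, and after TMM scaling icaf is highest, at 27494 to 31519.

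The members rose and fell together. Over the 12 libraries the median Pearson r between pairs of the 78 members that passed the filter on low values (at least 1 CPM in at least 3 libraries) was 0.825, against 0.256 for pairs of 2000 protein-coding genes drawn at random; all pairs share the same libraries, scaling and depth. The random genes were not matched to the members for level. With population means subtracted the members' median was 0.505, and no such value was taken for random genes. In 59 of the 78 the mean CPM descended from vcaf through icaf and m2cafneg to m2cafpos. The mean was highest in vcaf for 69 members and lowest in m2cafpos for 69. Rpl32 was among those that followed the mean of the other members most closely (r = 0.988). Rpl39l (r = -0.30), Rpl31 (0.211), Rplp1 (0.412), Rps10 (0.486) and Rpl24 (0.5002) followed it least.

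**Figure D2:**
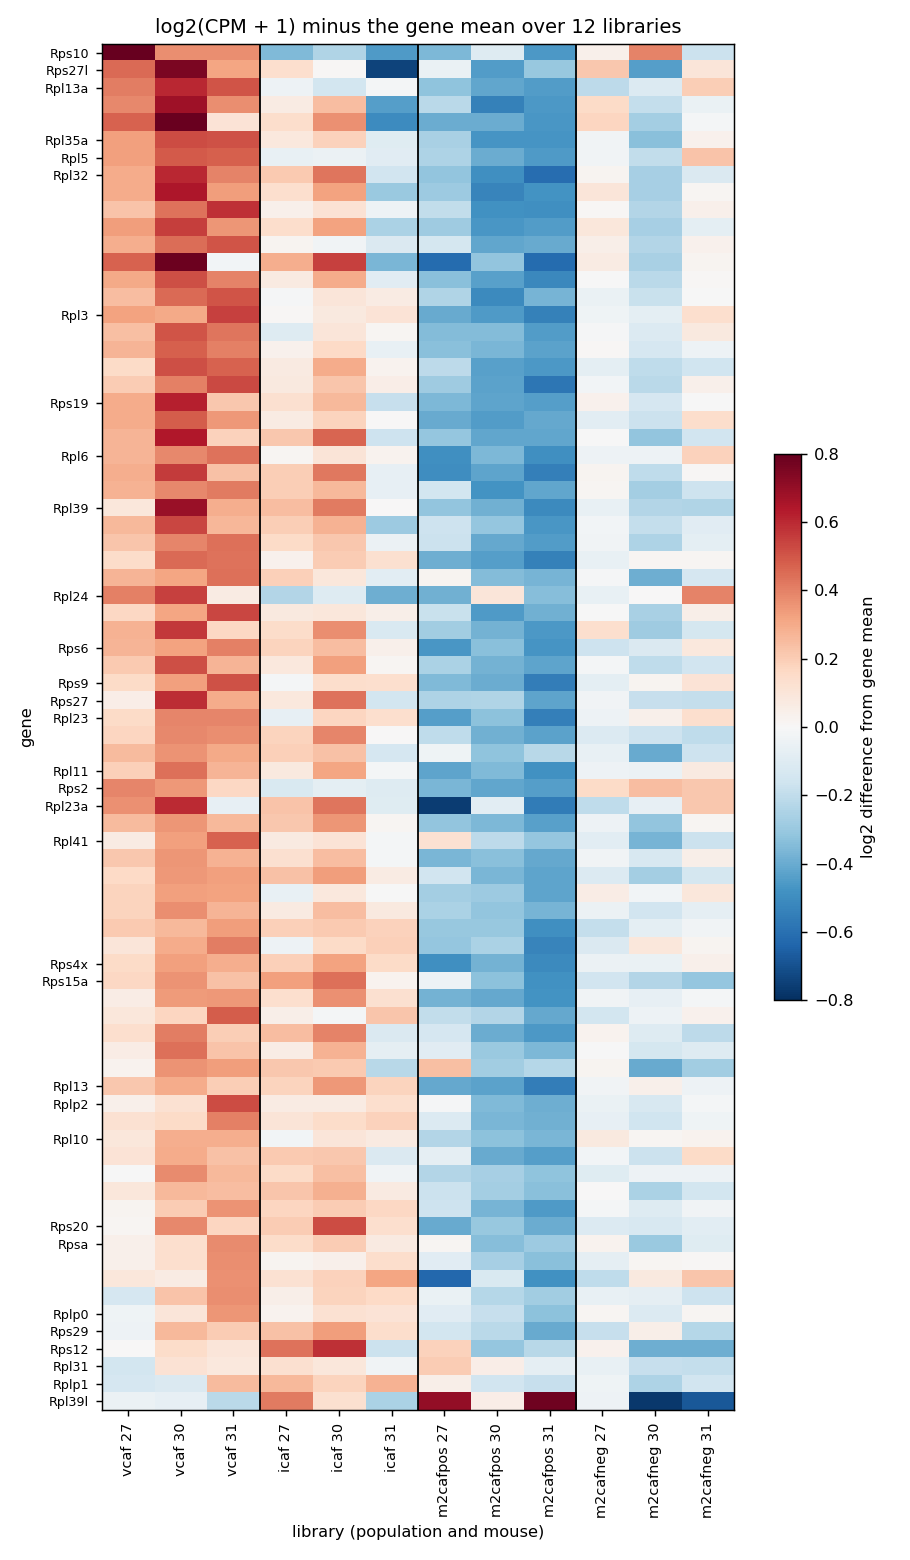
Difference of log2(CPM + 1) from the gene's mean over 12 libraries, for the 78 members that passed the filter (rows) and the 12 libraries by population and mouse (columns); colours end at the limits of the scale, rows are in order of the difference in vcaf, and genes described in the text are labelled. Most rows are red in vcaf and blue in m2cafpos, and Rpl39l runs the other way in m2cafpos.

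The ratio of large- to small-subunit mRNA did not differ past the test in any comparison. It was 1.70 ± 0.0542 in vcaf, 1.74 ± 0.0883 in icaf, 1.75 ± 0.0441 in m2cafpos and 1.76 ± 0.0486 in m2cafneg (SD, n = 3 each). Two-sided exact permutation tests of its log2 value gave p = 0.173 for vcaf against the rest, 0.643 for icaf against both m2caf populations and 1 for m2cafpos against m2cafneg. The last of these, with 3 libraries against 3, cannot go below 0.1.

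Promoters of 5 members are shown because they cover both kinds of behaviour described here: Rps15a and Rpl39 had 2 of the 3 largest differences between icaf and the m2caf populations, and Rps2, Rpl31 and Rpl39l departed from the other members. Each sequence runs from 150 bases before to 20 bases after the RefSeq transcription start on GRCm38.p6, read in the gene's direction. Capitals mark CCGGAAG or its reverse complement (the core site of ETS factors), AAGATGGC or its reverse complement (the core site of YY1), TATAAA or its reverse complement, and a pyrimidine run of at least 8 bases at the start. The windows are chr7:118116128-118116297 on the minus strand for Rps15a, chrX:37085203-37085372 on the minus strand for Rpl39, chr17:24719913-24720082 on the plus strand for Rps2, chr1:39367701-39367870 on the plus strand for Rpl31 and chr16:10170078-10170247 on the plus strand for Rpl39l.
Rps15a: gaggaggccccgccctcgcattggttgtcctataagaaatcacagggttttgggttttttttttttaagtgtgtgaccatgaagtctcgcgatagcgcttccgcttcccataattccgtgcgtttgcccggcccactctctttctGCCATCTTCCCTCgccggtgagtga
Rpl39: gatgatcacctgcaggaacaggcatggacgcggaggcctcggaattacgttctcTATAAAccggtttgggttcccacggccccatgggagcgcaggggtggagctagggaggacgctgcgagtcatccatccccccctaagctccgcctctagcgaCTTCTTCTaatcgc
Rps2: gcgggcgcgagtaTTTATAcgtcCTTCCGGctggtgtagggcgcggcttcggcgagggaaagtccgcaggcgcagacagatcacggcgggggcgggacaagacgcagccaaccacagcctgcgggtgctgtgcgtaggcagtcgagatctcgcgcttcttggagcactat
Rpl31: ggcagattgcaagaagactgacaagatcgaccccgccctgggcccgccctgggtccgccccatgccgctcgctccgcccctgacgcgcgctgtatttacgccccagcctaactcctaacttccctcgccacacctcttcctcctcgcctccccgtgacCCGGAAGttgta
Rpl39l: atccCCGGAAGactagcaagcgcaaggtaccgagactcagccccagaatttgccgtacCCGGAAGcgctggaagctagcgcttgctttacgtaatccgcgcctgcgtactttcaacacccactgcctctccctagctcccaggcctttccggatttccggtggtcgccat

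RefSeq held a promoter for 60 of the 80 members. A run of at least 8 pyrimidines that touched the stretch from 5 bases before to 10 bases after the start was present in 25 of them (41.7%), against 13.0% of 27025 genes. Such a run may extend beyond that stretch. The median longest run that touched it was 7 bases in members and 4 in all genes. CCGGAAG on either strand was present in 21 (35%), against 7.66% of all genes, AAGATGGC in 3 (5%) against 1.45%, and TATAAA in 3 (5%) against 9.48%. In Rps15a the YY1 core and the pyrimidine run overlap. A match describes letters in the window and not a bound site.

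By level per length of transcript, Rpl13 was the most abundant member, with a mean of 2244 CPM per kb over the 12 libraries. Rpl41, which codes for one of the shortest known proteins, had 1236 CPM per kb. Rpl32 had 1168, Rps19, a gene mutated in Diamond-Blackfan anaemia, had 1124, and Rps9 had 1112 CPM per kb. The lowest of the 78 were Rpl24 with 2.71 CPM per kb, Rps10 with 2.91, Rpl39l with 7.40, Rpl13a with 15.96 and Rpl23a with 42.2.

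Several of the low values belong to genes with processed copies. The 4 pseudogenes named after Rps10 had 22.5 CPM together, against 1.45 CPM for Rps10 itself, so 94.0% of these reads stood in pseudogene entries. The share was 34.1% for Rps2, 32.8% for Rpl35a, 31.5% for Rpl23a and 13.8% for Rpl13a. It was 4.44% at the median of 61 members with pseudogenes of their name, and over 10% in 14. How reads that fit several genes were counted is not given in the sources used here, so levels of these members are uncertain.

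**Figure D3:**
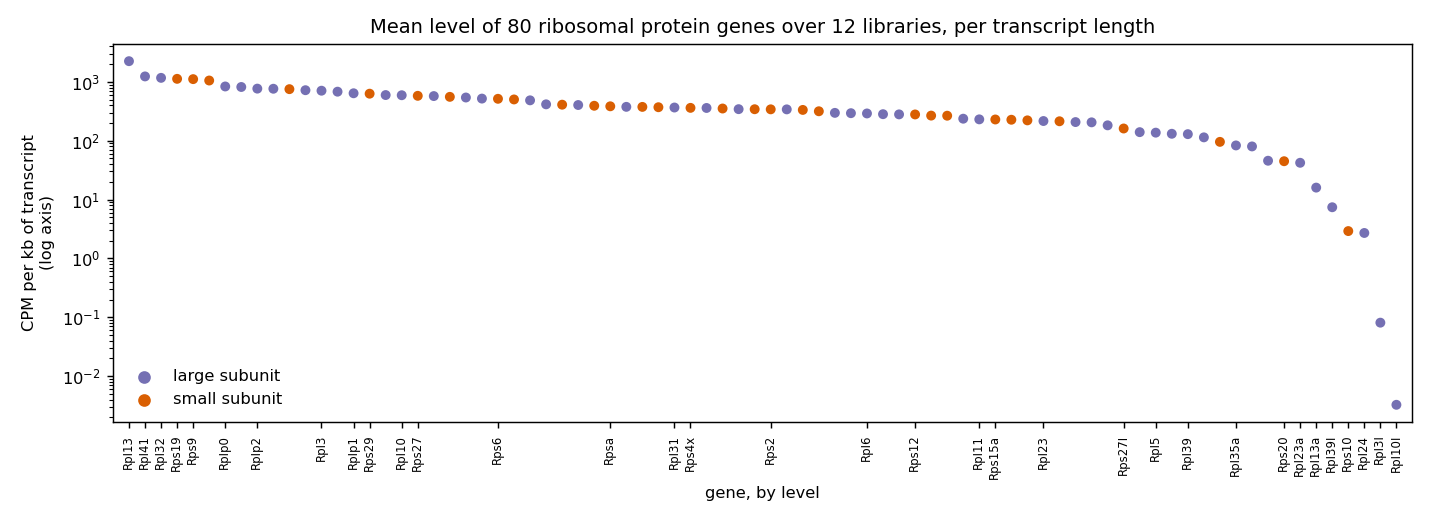
Mean CPM per kb of transcript of the 80 members over 12 libraries (log axis), in order of level, for the shortest principal transcript of each gene, with labels for genes described in the text. Rpl13 is highest at 2244 and Rpl10l lowest at 0.00326; the value of Rps20 (44.8) rests on an annotated transcript of 3706 bases.

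In vcaf cells, set against the other 3 populations, nearly all ribosomal protein genes had a higher share of reads. On the CPM scale 67 of 78 members were higher and 0 lower, and 11 missed the threshold (limma, adjusted p under 0.05 over 15456 genes), but 53.3% of all genes were higher and 14.2% lower in the same comparison. The median log2 fold change was 0.41 in members and 0.38 in all genes, a difference of 0.03. With TMM scaling, 2 members were higher (23.8% of all genes) and 2 lower (24.4%), and the medians were 0.01 in members and 0.02 in all genes. Median-of-ratios scaling, which also takes most genes as unchanged, gave 2 higher (23.5%) and 2 lower (24.7%).

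The summed level was 1.31-fold higher in vcaf on the CPM scale (log2 difference 0.39, two-sided exact permutation p = 0.0182 over 220 arrangements). With TMM scaling the log2 difference was -0.02 (exact permutation p = 0.855), and with median-of-ratios scaling -0.03 (exact permutation p = 0.786). Without the vcaf library of mouse 30 or of mouse 31, the CPM difference had an exact permutation p of 0.0727. With the summed epithelial markers as a covariate, 33 members were higher on the CPM scale (23.6% of all genes) and 0 lower (8.49%); all 20 epithelial and 15 of 15 macrophage markers tested were themselves higher in vcaf (limma, adjusted p under 0.05).

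Of the 78 members, 24 had no overlap between vcaf and the other libraries, all of them higher, where 25.8% of all genes were higher with no overlap. Rps27l, a paralog of Rps27 that the tumour suppressor p53 induces, was among them. It had 106, 131 and 96.6 CPM in vcaf, 85.0, 77.8 and 45.9 CPM in icaf, 74.6, 56.5 and 62.5 CPM in m2cafpos, and 89.99, 56.6 and 82.6 CPM in m2cafneg. Its log2 fold change was 0.68 ± 0.188 (SE; limma adjusted p = 0.00695), and 0.27 with TMM scaling (limma adjusted p = 0.256). Rps27 itself had 246 ± 46.0 CPM in vcaf, 216 ± 44.7 in icaf, 158 ± 11.2 in m2cafpos and 178 ± 11.7 in m2cafneg (SD, n = 3 each), with a log2 fold change of 0.42 (limma adjusted p = 0.0119) and 0.01 with TMM scaling (limma adjusted p = 0.967).

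Rpl13a, a large-subunit protein known for silencing inflammatory mRNAs in human monocytes, and Rps10 were higher on both scales. Both are among the lowest members. Of the reads on each gene and its named pseudogenes, 13.8% for Rpl13a and 94.0% for Rps10 stood in pseudogene entries, so these levels are uncertain. Rpl13a had 21.8, 25.2 and 23.4 CPM in vcaf, against 15.4 ± 0.806 in icaf, 12.1 ± 0.592 in m2cafpos and 15.8 ± 2.53 in m2cafneg (SD, n = 3 each). Its log2 fold change was 0.67 ± 0.108 (SE; limma adjusted p = 2.01e-04) on the CPM scale and 0.28 (limma adjusted p = 0.0338) with TMM scaling. Rps10 had 3.50, 2.03 and 2.04 CPM in vcaf, 0.836, 0.983 and 0.713 in icaf, 0.831, 1.19 and 0.706 in m2cafpos, and 1.42, 2.09 and 1.08 in m2cafneg. Its log2 fold change was 0.75 ± 0.169 (SE; limma adjusted p = 0.00199), and 0.49 (limma adjusted p = 0.0314) with TMM scaling; vcaf and m2cafneg overlapped.

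To ask which members departed from the others, each gene was also measured relative to the median member of its library, a value from which the scaling factor of a library cancels, apart from the pseudocount. By construction this centres the members and not the other genes. In every comparison, relative counts of members and shares of all genes are therefore not like for like. On this measure 0 members were higher in vcaf (19.9% of all genes) and 2 lower (24.6%), and 4 were lower without vcaf of mouse 31 or icaf of mouse 31. Rps10 and Rpl13a did not pass here, with relative log2 differences of 0.35 and 0.28 (limma adjusted p = 0.148 and 0.0686). Rplp1, an acidic protein of the stalk that recruits elongation factors, had 288, 292 and 378 CPM in vcaf, 379, 358 and 384 in icaf, 327, 285 and 278 in m2cafpos, and 309, 267 and 284 in m2cafneg. It was 0.40 ± 0.101 lower on the log2 scale relative to the other members (SE; limma adjusted p = 0.00615). Its stalk partners Rplp0 and Rplp2 had relative differences of -0.21 and -0.09 (limma adjusted p = 0.106 and 0.501).

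Rpl31, a large-subunit protein near the exit of the peptide tunnel, had 161, 192 and 189 CPM in vcaf, 194, 189 and 174 in icaf, 205, 184 and 169 in m2cafpos, and 170, 156 and 155 in m2cafneg. Its mean was lowest in m2cafneg, whose libraries overlapped those of vcaf and m2cafpos but not those of icaf. Its difference in vcaf on the CPM scale was 0.03 ± 0.0848 in log2 and did not pass the test (SE; limma adjusted p = 0.801). Relative to the other members its log2 difference was -0.37 ± 0.0818 (SE; limma adjusted p = 0.00228). With the epithelial covariate, neither departure passed the test (limma adjusted p = 0.0580 for Rplp1 and 0.199 for Rpl31).

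**Figure D4:**
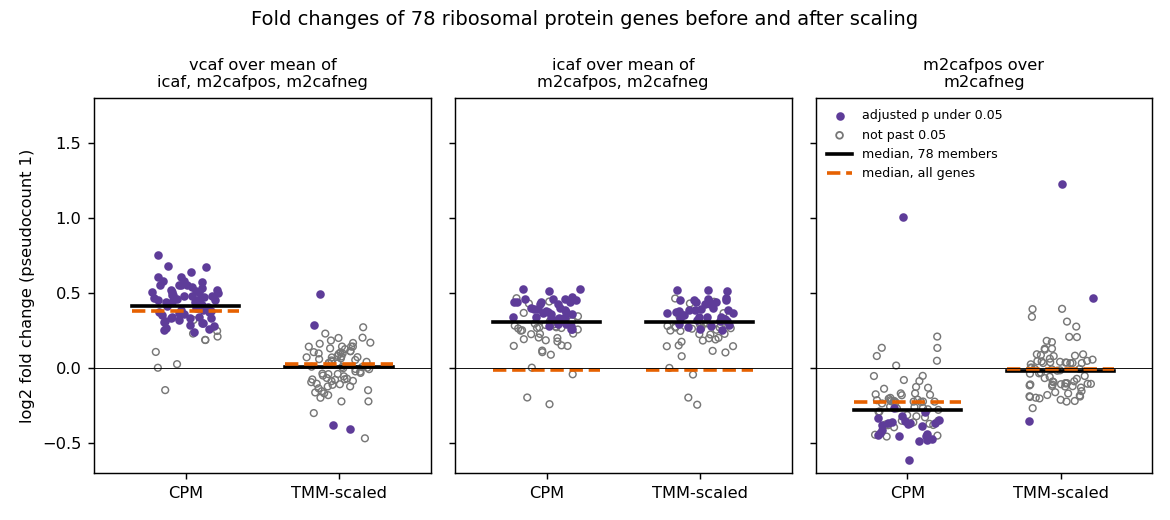
Log2 fold changes of 78 members in 3 comparisons, on the CPM scale and after TMM scaling; filled points passed an adjusted p of 0.05, black bars are member medians and dashed bars medians of all 15456 genes. In vcaf the member median goes with that of all genes on both scales, and in icaf the member median of 0.31 stands above the all-gene median of -0.01 on both.

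In icaf cells, set against the mean of m2cafpos and m2cafneg, ribosomal protein genes were higher while genes as a whole were not. On the CPM scale 38 of 78 members were higher and 0 lower, and 40 missed the threshold, where 12.1% of all genes were higher and 14.2% lower (limma, adjusted p under 0.05). The median log2 fold change was 0.31 in members and -0.01 in all genes. The result held with TMM scaling (39 higher, 12.4% of all genes; 0 lower, 14.8%; medians 0.31 and -0.01) and with median-of-ratios scaling (39 higher, 12.4% of all genes; 0 lower, 14.8%).

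Both subunits were represented, with 23 of 47 large-subunit members and 15 of 31 small-subunit members higher. The summed level was 1.25-fold higher in icaf (log2 difference 0.32, two-sided exact permutation p = 0.0238 over 84 arrangements). With arrangements kept within each mouse, the exact permutation p was 0.0741. Without any 1 of the 3 icaf libraries the exact permutation p was 0.0714 to 0.107, and without m2cafpos of mouse 27 it was 0.0536.

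The number of calls depended on single libraries. It was 10 without icaf of mouse 30, which had the highest icaf sum, where 8.07% of all genes were higher. It was 22 without icaf of mouse 27 (8.32% of all genes) and 23 without m2cafpos of mouse 31 (9.86%). With the epithelial covariate it was 16 (7.44%); in this comparison 7 of 20 epithelial and 14 of 15 macrophage markers tested were lower in icaf. The icaf sum was higher against both m2caf populations on either scale. Against m2cafpos, where epithelial sums overlapped and 0 of 20 epithelial markers passed the test, 53 members were higher (15% of all genes) and 0 lower (8.86%) on the CPM scale, and 25 higher (9.87%) and 0 lower (11.3%) with TMM scaling. Against m2cafneg, 8 were higher (8.77%) and 1, Rps2, lower (20.9%) on the CPM scale, and 27 higher (12.9%) and 0 lower (16.8%) with TMM scaling.

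The largest differences were in Rps20, Rps15a and Rpl39. Rps20, a small-subunit protein at chr4:3831334-3835665 on GRCm38, had 188, 234 and 179 CPM in icaf, 123, 132 and 123 in m2cafpos, and 151, 149 and 154 in m2cafneg. All icaf libraries were above all m2caf libraries, and the log2 fold change was 0.52 ± 0.103 (SE; limma adjusted p = 0.00239). Rps15a (chr7:118104372-118116188), whose promoter is printed above, had 180, 195 and 147 CPM in icaf, 140, 114 and 102 in m2cafpos, and 129, 122 and 116 in m2cafneg. Its log2 fold change was 0.52 ± 0.114 (SE; limma adjusted p = 0.00469), and the groups did not overlap.

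Rpl39 (chrX:37082520-37085402), which codes for a very small protein lining the peptide exit tunnel, had 91.3, 103 and 77.0 CPM in icaf, 61.4, 58.5 and 53.7 in m2cafpos, and 73.7, 65.0 and 64.8 in m2cafneg. Every icaf library was above every m2caf library, and Rpl39 was higher by 0.51 ± 0.130 in log2 (SE; limma adjusted p = 0.0114). Without icaf of mouse 30 its limma adjusted p was 0.0746. Against m2cafneg alone, Rpl39 did not pass on the CPM scale (log2 fold change 0.40, limma adjusted p = 0.0618). It did with TMM scaling (0.53, limma adjusted p = 0.0263). In all, 26 members were higher in icaf with no overlap, where 10.6% of all genes were. Of 123 ribosomal protein pseudogenes that passed the filter, 23 were higher in icaf and 0 lower, with a median log2 fold change of 0.32, beside 12.1% higher and 14.2% lower among all genes.

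Among members with known roles outside the ribosome or in signalling, Rps6, the substrate of S6 kinase, had 495 ± 35.9 CPM in icaf, 331 ± 17.95 in m2cafpos and 424 ± 39.5 in m2cafneg (SD, n = 3 each; log2 fold change 0.40, limma adjusted p = 0.00506). Rpl11, which with Rpl5 can bind and inhibit the p53 ligase Mdm2, had a log2 fold change of 0.34 (limma adjusted p = 0.0162). Rpl5 had 261 ± 4.07 CPM in icaf, 213 ± 15.8 in m2cafpos and 276 ± 41.7 in m2cafneg (SD, n = 3 each), with a log2 fold change of 0.12 that did not pass the test (limma adjusted p = 0.415). Rpsa, also known as the laminin receptor, had a log2 fold change of 0.31 (limma adjusted p = 0.0675), Rps4x of 0.46 (limma adjusted p = 9.71e-04), and Rplp1 of 0.36 (limma adjusted p = 0.0227). Against m2cafneg alone on the CPM scale, Rplp1 passed the test (limma adjusted p = 0.0299). Rps6, Rpl11 and Rps4x did not pass there (limma adjusted p = 0.121, 0.382 and 0.0668). With TMM scaling against m2cafneg, Rps6 and Rps4x passed and Rpl11 did not (limma adjusted p = 0.0163, 0.0113 and 0.0912).

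Relative to the median member, 0 members were higher in icaf (5.57% of all genes) and 3 lower (37.4%): Rps10, Rpl24 and Rps2. Since this measure centres only the members, these counts and shares are not like for like. Rps2 (chr17:24718116-24721929), at the mRNA entry of the small subunit, had 307, 317 and 311 CPM in icaf, 259, 250 and 246 in m2cafpos, and 372, 397 and 388 in m2cafneg. Its relative log2 difference was -0.31 ± 0.0971 (SE; limma adjusted p = 0.0228), with icaf between the m2caf populations in CPM. Rpl24, of the large subunit, had 1.35, 1.57 and 1.11 CPM in icaf, 1.12, 1.97 and 1.19 in m2cafpos, and 1.65, 1.78 and 2.64 in m2cafneg. Its relative log2 difference was -0.50 ± 0.182 (SE; limma adjusted p = 0.0388), and that of Rps10 -0.55 ± 0.200 (SE; limma adjusted p = 0.0410). On the CPM scale Rpl24 (-0.20) and Rps10 (-0.24) did not pass the test (limma adjusted p = 0.444 and 0.351). At their low levels the pseudocount keeps the scaling factor from cancelling. Of the reads on Rps10 and its named pseudogenes, 94.0% stood in pseudogene entries. Each of the 3 lost its call when icaf of mouse 27 or 30, or m2cafpos of mouse 31, was left out, with 0 calls left in each case (limma adjusted p = 0.0508 to 0.1001); 1 call was left without icaf of mouse 31 or m2cafpos of mouse 30. A pseudocount of 0.1 left 1 of the 3 calls, with limma adjusted p = 0.0842 for Rps10 and 0.10002 for Rpl24, and adding the 6 relatives to the members left 0 (limma adjusted p = 0.0631 to 0.0670).

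In m2cafpos cells, set against m2cafneg, ribosomal protein genes took a smaller share of reads, and so did genes as a whole. On the CPM scale 1 of 78 members, Rpl39l, was higher (3.51% of all genes), 23 were lower (22.6%) and 54 missed the threshold (limma, adjusted p under 0.05). The median log2 fold change was -0.28 in members and -0.23 in all genes, a difference of -0.05. With TMM scaling 2 members were higher (7.76% of all genes) and 1 lower (8.96%), with medians of -0.02 in members and -0.005 in all genes, while median-of-ratios scaling called 2 members higher (8.79%) and 1 lower (8.26%) at a member median of 0.01.

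The sum was 0.813-fold in m2cafpos relative to m2cafneg on the CPM scale (log2 difference -0.30, two-sided exact permutation p = 0.1, the smallest that 3 libraries against 3 allow). Of the 78 members, 44 were lower in m2cafpos with no overlap, where 36.4% of all genes were, and 1 higher, where 7.09% were. The count of lower members was 6 without m2cafpos of mouse 31, where 16.2% of all genes were lower, and 8 without m2cafneg of mouse 31 (12.9% of all genes). It was 14 without m2cafpos of mouse 30 (14.5%) and 15 without m2cafpos of mouse 27 (12.6%). Here 18 of 20 epithelial and 14 of 15 macrophage markers tested were lower in m2cafpos, and with the epithelial covariate 0 members were higher (0.485% of all genes) and 1 lower (1.16%). Epithelial sums did not overlap between m2cafpos (769 to 3461 CPM) and m2cafneg (6643 to 14487 CPM). The covariate and the population can therefore not be fully separated in this comparison.

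Rpl39l (chr16:10170226-10174911), a paralog of Rpl39 known in mouse for its high expression in male germ cells, was the member called higher in m2cafpos on the CPM scale. Rpl31, Rps12, Rps21, Rpl41, Rplp1 and Rpl12 also had log2 fold changes above 0, of 0.02 to 0.21, that did not pass the test. Rpl39l had 6.86, 4.00 and 7.29 CPM in m2cafpos, against 3.70, 1.82 and 2.01 CPM in m2cafneg, with 3.66, 3.60 and 3.16 in vcaf and 5.43, 4.27 and 3.05 in icaf. The m2cafpos libraries were above all m2cafneg libraries but not above all icaf libraries, and the values rest on 81 to 380 reads. On the CPM scale it was higher by 1.01 ± 0.258 in log2 (SE; limma adjusted p = 0.0151), where it lost its call without m2cafpos of mouse 27 or 31 or m2cafneg of mouse 31 (limma adjusted p = 0.0607, 0.0558 and 0.0539). Relative to the other members the log2 difference was 1.27 ± 0.263 (SE; limma adjusted p = 0.00916), and it passed the test whichever library was left out. With the epithelial covariate the relative difference was 1.41 (limma adjusted p = 0.180), but that covariate cannot be fully separated from the population here.

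On that relative measure 2 members were higher in m2cafpos (6.24% of all genes) and 0 lower (6.02%). Rpl31 was the other, with a relative log2 difference of 0.47 ± 0.1002 (SE; limma adjusted p = 0.0104) from the CPM values given above. On the CPM scale its log2 fold change of 0.21 did not pass the test (limma adjusted p = 0.156). With the epithelial covariate, which has the limit given above, its relative difference was 0.40 (limma adjusted p = 0.409). With the mouse as a block, 1 member, Rps2, was lower (relative log2 difference -0.35, limma adjusted p = 0.0499 against 0.0563 without the block).

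The largest falls on the CPM scale were in Rps2, Rpl23 and Rpl6. Rps2 had 252 ± 7.10 CPM in m2cafpos and 386 ± 12.8 CPM in m2cafneg (SD, n = 3 each), with a log2 difference of -0.61 ± 0.0877 (SE; limma adjusted p = 0.00142). It was still lower with TMM scaling (-0.35, limma adjusted p = 0.0237). Its pseudogene Rps2-ps10, picked after its values were seen, had 102 ± 15.8 CPM in m2cafpos and 188 ± 18.6 CPM in m2cafneg (SD, n = 3 each). Rpl23, which like Rpl5 and Rpl11 can bind Mdm2, had 165, 179 and 153 CPM in m2cafpos, against 218, 231 and 247 CPM in m2cafneg (log2 fold change -0.48, limma adjusted p = 0.00804). Rpl6 had 256, 281 and 257 CPM in m2cafpos, against 351, 351 and 410 CPM in m2cafneg (log2 fold change -0.48, limma adjusted p = 0.00541). With TMM scaling, Rpl23 and Rpl6 each had a log2 fold change of -0.22 (limma adjusted p = 0.178 and 0.117).

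**Figure D5:**
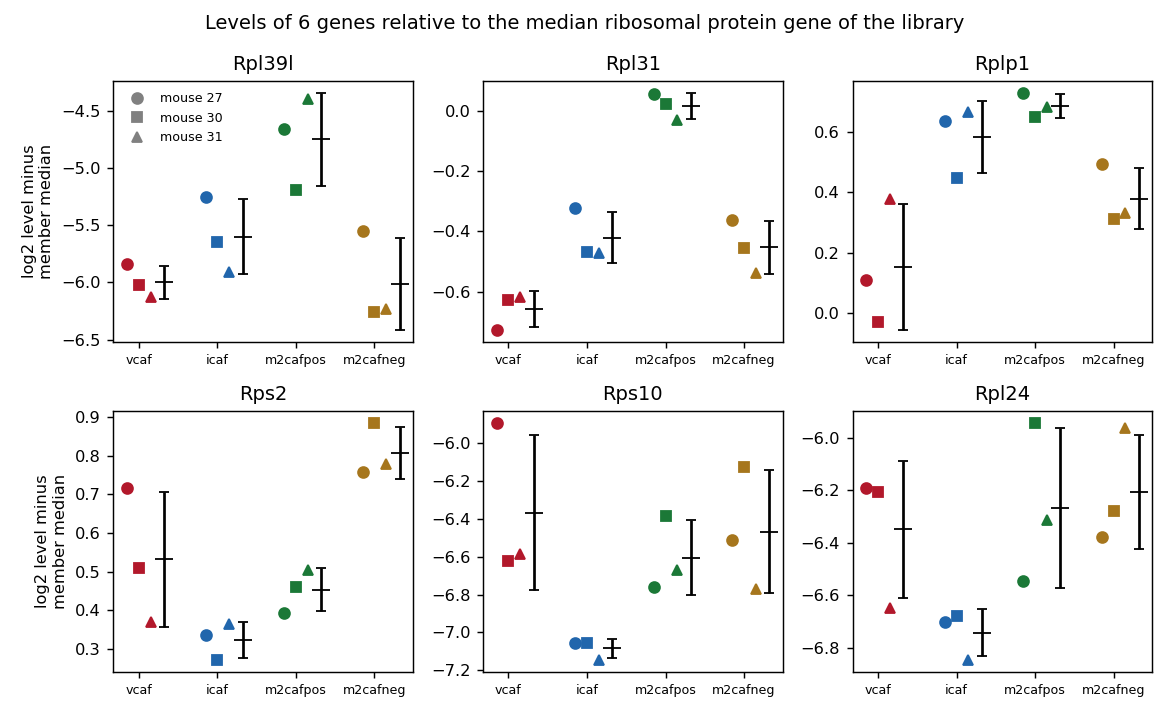
Log2 level of 6 members minus the median member of the same library, per library with mean and SD (n = 3 each); symbols mark the mouse and vertical axes differ. Rpl39l and Rpl31 are highest in m2cafpos, Rplp1 and Rpl31 lowest in vcaf, and Rps2, Rps10 and Rpl24 lowest in icaf on average.

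The pairs with vcaf depended most on scaling. Against icaf, 18 members were higher in vcaf (46.1% of all genes) and 0 lower (13.9%) on the CPM scale, and 1 higher (24.9%) and 22 lower (23.8%) with TMM scaling; the lower ones included Rplp1, Rps12, Rps29, Rps20 and Rpl31. Against m2cafpos, 73 were higher (55.5%) and 1, Rpl39l, lower (12.4%), and with TMM scaling 5 were higher (23.6%) and 3 lower (22.7%). Against m2cafneg, 46 were higher (26.6%) and 0 lower (11.3%), and with TMM scaling 0 were higher (9.74%) and 0 lower (15.7%). These comparisons share their vcaf libraries. With median-of-ratios scaling vcaf had 1 member higher (24.6%) and 22 lower (24.1%) against icaf, 3 higher (22.7%) and 3 lower (23.5%) against m2cafpos, and 0 higher (10%) and 0 lower (15.4%) against m2cafneg. On that scale icaf had 25 members higher (9.57%) and 0 lower (11.8%) against m2cafpos, and 31 higher (13.7%) and 0 lower (16.4%) against m2cafneg.

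Of the tissue-specific paralogs, Rpl10l and Rpl3l had few or no reads, unlike Rpl39l described above. Rpl10l, a germ cell paralog of Rpl10 in mouse, had 2 reads in vcaf of mouse 27 and none in the other libraries, where a count of 0 allows up to 3 reads, while Rpl10 had 548 ± 43.2 CPM in vcaf, 485 ± 21.6 in icaf, 378 ± 18.2 in m2cafpos and 482 ± 11.1 in m2cafneg (SD, n = 3 each). Rpl3l, a paralog of Rpl3 restricted to striated muscle and heart, had 0 to 16 reads per library, at most 0.297 CPM. Rpl3 had 1228 ± 120 CPM in vcaf, 977 ± 34.5 in icaf, 676 ± 33.2 in m2cafpos and 940 ± 74.0 in m2cafneg (SD, n = 3 each). Neither Rpl10l nor Rpl3l passed the filter, and they account for the 2 members not tested. Rps4l, annotated in the table as a transcribed processed pseudogene and hence no member, had 26.3 ± 3.19 CPM in vcaf, 45.8 ± 9.49 in icaf, 51.3 ± 10.8 in m2cafpos and 24.9 ± 4.15 in m2cafneg (SD, n = 3 each).

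Counts in other gene lists stand beside those over all genes. As CPM, 53.3% of all genes were higher and 14.2% lower in vcaf, 12.1% higher and 14.2% lower in icaf, and 3.51% higher and 22.6% lower in m2cafpos, with medians of 0.38, -0.01 and -0.23. With TMM scaling the shares were 23.8% and 24.4% in vcaf, 12.4% and 14.8% in icaf, and 7.76% and 8.96% in m2cafpos.

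The 6 ribosomal protein genes and paralogs with other symbols followed a similar order in sum, with 1178 ± 54.8 CPM in vcaf, 1035 ± 68.0 in icaf, 762 ± 43.6 in m2cafpos and 958 ± 54.5 in m2cafneg (SD, n = 3 each). In vcaf 4 of 6 were higher on the CPM scale and 0 with TMM scaling, among them Fau, whose product is a ubiquitin-like fusion of a small-subunit protein (log2 fold change 0.52), Rpl22l1 (0.77) and Rps3a1 (0.34). Rpl36al and Rpl7l1 had log2 fold changes of 0.05 and 0.18 and did not pass the test. In icaf against the m2caf populations 1 of 6, Rps3a1, was higher (log2 fold change 0.34, limma adjusted p = 0.0152). In m2cafpos against m2cafneg 2 of 6, Fau (-0.35) and Rps3a1 (-0.33), were lower on the CPM scale and 0 with TMM scaling.

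Translation factors and other genes with TOP mRNAs are under the same control. Of 18, 15 were higher in vcaf and 0 lower on the CPM scale, with a median log2 fold change of 0.41 beside 0.38 over all genes, and 3 higher and 1 lower with TMM scaling. Naca, a subunit of the nascent polypeptide-associated complex, had 0.74 and its partner Btf3 had 0.64. In icaf against the m2caf populations 6 of 18 were higher and 0 lower on either scale (median 0.26), among them Naca (0.41), the initiation factor subunit Eif3e (0.53) and the elongation factor subunit Eef1g (0.39). In m2cafpos against m2cafneg 6 were lower, among them the poly(A)-binding protein Pabpc1 (-0.51), and 0 were called in either direction with TMM scaling.

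Genes of ribosome biogenesis were counted in the same way. Of 25, 20 were higher in vcaf and 0 lower on the CPM scale, and 1 higher and 1 lower with TMM scaling. In icaf against the m2caf populations 2 were higher on either scale, Bysl (log2 fold change 0.48) and Nop2 (0.31), and the list median was 0.21. In m2cafpos against m2cafneg 9 were lower on the CPM scale and 0 with TMM scaling, among them Polr1a (-0.77), the largest subunit of RNA polymerase I, and the snoRNP gene Gar1 (-0.71). The difference between these lists and the members was not tested.

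Of 15 genes of the mTOR and Myc pathways, 9 were higher in vcaf on the CPM scale and 1 higher and 2 lower with TMM scaling. Mtor had 28.2 ± 0.870 CPM in vcaf, 15.1 ± 2.23 in icaf, 11.4 ± 0.516 in m2cafpos and 14.99 ± 1.46 in m2cafneg (SD, n = 3 each; log2 fold change in vcaf 0.99, limma adjusted p = 8.65e-06). In icaf against the m2caf populations 1 of 15 was higher, Myc, a transcription factor that activates ribosomal genes. Myc had 231, 272 and 304 CPM in icaf, 100, 143 and 102 in m2cafpos, and 165, 225 and 123 in m2cafneg. All icaf libraries were above all m2caf libraries (log2 fold change 0.95, limma adjusted p = 0.00138). In m2cafpos against m2cafneg 2 were lower on the CPM scale and 0 higher, against 0 lower and 2 higher with TMM scaling.

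Of 12 genes of ribosomal protein assembly and of the p53 response to its failure, 9 were higher in vcaf on the CPM scale and 1 higher and 1 lower with TMM scaling. In icaf 1 was lower, the p53 target Cdkn1a (log2 fold change -0.65, limma adjusted p = 0.00229). In m2cafpos 1 was higher, Cdkn1a (0.46, limma adjusted p = 0.0375), and 4 were lower, with Nop53 (-0.84, limma adjusted p = 0.00306) changed most.

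Mitochondrial ribosomal proteins are coded by a separate set of nuclear genes, and their difference from the cytosolic members was not tested. Of 77 in the fit, 4 were higher in icaf against the m2caf populations and 0 lower, with a median log2 fold change of 0.11, beside 38 of 78 and 0.31 for the cytosolic members. In vcaf 62 of the 77 were higher on the CPM scale, and 12 higher and 8 lower with TMM scaling. In m2cafpos against m2cafneg 23 were lower and 0 higher on the CPM scale, and 3 lower and 0 higher with TMM scaling. Of 72 nuclear genes of the respiratory chain, 68 were higher in vcaf, 2 higher and 1 lower in icaf, and 1 higher and 11 lower in m2cafpos; with TMM scaling these counts were 20 higher and 1 lower, 3 higher and 1 lower, and 5 higher and 2 lower.

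Among the 100 protein-coding genes most alike to the mean of the members over the 12 libraries, 41 were members. In all, 78 of the 13321 protein-coding genes that passed the filter were members. That mean was made from the members themselves, so their count among the 100 was favoured in advance. The 8 most alike genes that were not members, by Pearson r with that mean, were Psme1 (0.978), Snrpd2 (0.970), Naca (0.964), Nfu1 (0.962), Actr10 (0.961), Anp32b (0.958), Smyd2 (0.957) and Rpain (0.954). The most alike, Psme1, a proteasome activator subunit, had a mean of 91.6 CPM in vcaf, 75.9 in icaf, 47.3 in m2cafpos and 65.5 in m2cafneg.

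The spread between replicates of a population in these genes was also measured. The median coefficient of variation of members was 10.9% in vcaf, 9.18% in icaf, 8.65% in m2cafpos and 7.88% in m2cafneg, beside 16.5%, 14.1%, 12.6% and 17.1% for protein-coding genes in the same populations. Those genes were not matched to the members for level, and depth limits precision at low counts.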

How the data were processed

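RNA of 12 libraries (4 populations, 3 mice) was analysed. The authors deposited CPM: reads per gene divided by the reads assigned to genes, per the deposited values, which were whole multiples of 1 read within 0.001 in 100% of cases; these reads gave the library totals and served as recovered counts. Per the submitters' processing notes, bcl2fastq, DRAGEN and the mm10 build were used; for the counting tool, annotation and strand setting nothing is stated (not given in the sources used here). Of 55774 lines, 287 repeated a gene with equal values. The title 27_vacf was taken to mean vcaf.

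The filter of 1 CPM in 3 or more libraries left 15456 genes, whose log2(CPM + 1) values went into limma 3.58.1 (R 4.3.3, 4 groups, eBayes with trend, 8 residual degrees of freedom), with Benjamini-Hochberg adjustment over them at 0.05; fold changes of low genes are understated. Sums were compared by exact permutation over libraries. TMM factors and a quasi-likelihood test came from edgeR 4.0.16 on recovered counts. Gene positions and lengths came from GENCODE M21, promoters from RefSeq GRCm38.p6. Depth limits precision at low counts; intervals and floors cover counting error only. Scripts were tested on simulated data.

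The members, lists and naming rule were chosen with earlier results of these data known. In each comparison the rule named the 5 largest relative differences per direction past the test, the 3 largest in CPM, paralog pairs, stalk and p53-linked genes, the 5 highest and 5 lowest per kb, and up to 4 members of each other list. Mouse numbers were read from the library titles as animals. Deviations from population means correlated across genes with a median r of 0.293 within a mouse (0.0843 to 0.452, 18 pairs) and -0.15 between mice. Over the members alone the medians were 0.107 (-0.395 to 0.804) and -0.07. Deviations within a population sum to 0, so the value between mice is not independent of that within a mouse. These values do not show what the numbers stand for. The alternatives were other scalings, pseudocount 0.1, no filter, edgeR, the mouse as a block, an epithelial covariate, the 6 extra genes and leaving out each library.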

Additional observations from a re-analysis of the deposited data

How the results depend on the processing

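With TMM scaling, in vcaf against the rest 2 members were higher and 2 lower, the member median was 0.00600 and the log2 difference of sums -0.0235. Median-of-ratios scaling gave 2 higher, 2 lower, a median of -0.00182 and a difference of -0.0314, and edgeR 2 higher, 2 lower and a median of 0.0146. In m2cafpos against m2cafneg these settings gave 2 higher and 1 lower each, with medians of -0.0173, 0.0147 and -0.0198. Totals without genes over 1% of reads gave a vcaf median of 0.33, 23 members higher in icaf, and 2 higher and 6 lower in m2cafpos (median -0.16). Between pairs, with TMM and with median-of-ratios scaling alike, vcaf against icaf had 1 higher and 22 lower, vcaf against m2cafneg 0 higher, and icaf against m2cafpos 25 higher; vcaf against m2cafpos had 5 and then 3 higher, with 3 lower, and icaf against m2cafneg 27 and then 31 higher, with 0 lower. The pseudocount of 0.1 gave 1 member relatively higher in vcaf and 1 relatively lower in icaf. Without a filter, 25 members were higher in icaf, and the relative counts were 5 lower in vcaf, 5 lower in icaf, and 6 higher and 1 lower in m2cafpos. The epithelial covariate gave 33 higher and 0 relatively lower in vcaf, 16 higher in icaf, and 0 higher, 1 lower and 0 relatively higher in m2cafpos. Adding the 6 extra genes left 0 relatively lower in icaf. With the mouse as a replicate block the icaf sum (log2 difference 0.32) had an exact permutation p of 0.0741 and 1 member was relatively lower in m2cafpos; the block changed no other call of a sum and moved no other count by over 1.5 times.

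Leaving out each library gave, in vcaf, 0 to 1 relatively higher, 2 to 4 relatively lower and a sum difference of 0.34 to 0.45; in icaf, 10 to 42 higher, 0 to 1 relatively higher, 0 to 3 relatively lower and a sum difference of 0.27 to 0.36; and in m2cafpos, 0 to 1 higher, 6 to 26 lower, 0 to 1 relatively lower and a median of -0.36 to -0.24. Of 319 alternatives for single named genes, 275 kept their call and direction, 44 lost the call and 0 reversed. These include fits that left out a library outside the comparison, where the fold change could not move. The causes were not tested. The number of libraries, 3 per population, limits the precision.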
